A study of Mus musculus with 6 samples.

Results

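Tpm1, Tpm2, Cnn1, Cnn2, Mylk and S100a6 were followed in the mouse ovary over the first days after birth. They were taken as every probe whose annotation names tropomyosin 1 alpha, tropomyosin 2 beta, calponin 1, calponin 2, the myosin light chain kinase or calcyclin. That gave 1 probe for each gene, 6 of the 8272 probes on the array, so that no gene had a second probe to set beside the first. All 6 probes were tested.

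The series used RNA of whole ovaries of C57Bl/6J pups, and the labels name no transgene or treatment. On 3 arrays, RNA of ovaries 4 days after birth (Cy5) was set against RNA of ovaries of the first day of life, called day 0 here (Cy3). On 3 other arrays, RNA of ovaries 2 days after birth (Cy5) was set against day 0 RNA (Cy3). Each array is labelled as a biological replicate, and array 3 of both ages carried the same day 0 RNA. How many ovaries were pooled for an RNA is not given in the sources used here, so that the p-values measure the spread between these RNA samples. The slides were spotted with cDNA clones of a mouse embryo set, and each probe gave 4 repeat ratios per array. A value is a log2 ratio, the later day over day 0, so that 1 is a doubling and 0 is no difference.

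Tropomyosins lie along actin filaments and gate the access of myosin. Calponins bind actin and tropomyosin and restrain the myosin motor, while the myosin light chain kinase, switched on by calcium, starts contraction of smooth muscle by phosphorylating the regulatory light chain. S100a6 is a small calcium-binding protein known from fibroblasts and dividing cells. In the ovary the contractile proteins are known from the smooth muscle of vessels and from contractile cells of the stroma and the theca, the layers around the follicles. In mice of this age the germ cell nests break up into the first follicles.

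By the file headers all 6 arrays were labelled in the same direction, so that a dye effect specific to a probe cannot be told apart from a difference to day 0. It cancels between day 4 and day 2 only if every array was labelled as the headers state. The array medians lay between −0.00 and 0.02, and between 6.75% and 20.1% of the values on an array carried a flag of the authors. The log2 ratios of day 4 arrays 1 and 2 correlated at r = 0.752 across probes. Those of day 2 arrays 1 and 2 correlated at r = −0.675, and 74.9% of probes had opposite signs on them, against 30.1% for day 4 arrays 1 and 2. The direction of a day 2 value is therefore not settled. Each day 2 result of the 6 genes is also given with the sign of array 1 or of array 2 turned. As deposited, day 2 array 1 correlated with day 4 arrays 1, 2 and 3 at r = 0.270, 0.176 and 0.023. Day 2 array 2 correlated with them at r = 0.109, 0.239 and 0.225. Whether the channels of an array were exchanged was not tested. Of the 6 genes, Cnn1, Cnn2 and Mylk had opposite signs on day 2 arrays 1 and 2.

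The label of smooth muscle or stroma could be checked only in part. Of 9 smooth muscle markers, Cnn1 and Smtn were measured, of 5 pericyte markers none, and of 10 stromal fibroblast markers only Pdgfra. The 3 had log2 differences of 0.01, 0.29 and 0.12 between day 4 and day 0, none of them past the test. Acta2, Tagln, Myh11 and Des were not analysed here. The genes are therefore called by their molecular roles. In whole ovaries, fewer cells of a type and less RNA per cell cannot be told apart.

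A region around 1 RefSeq transcript start of each gene, 250 bases before it to 50 bases after it (mouse build GRCm38.p6), was searched on both strands for 3 motifs known from contractile genes. These were the CArG box, the site of serum response factor; GGAATG, the MCAT site of TEAD factors; and CANNTG, the E-box. All 6 genes had such a region. A CArG box occurred in the region of Cnn2 alone, and in 1.63% of 32851 promoters of this length. GGAATG occurred in those of Tpm1 and Mylk, and in 14.7% of all promoters. CANNTG occurred in 5 of the 6, all but Mylk, and in 72.3% of all promoters. None of the matches overlapped another. The 3 regions that hold a CArG box or an MCAT site are shown, with those matches in capitals. The region of Cnn2 is chr10:79988350-79988649 on the plus strand, and its CArG box begins 56 bases before the start. The region of Tpm1 is chr9:67049164-67049463 on the minus strand, and its MCAT site begins 56 bases before the start. The region of Mylk is chr16:34784700-34784999 on the plus strand, and its MCAT site, read on the other strand, begins 158 bases before this internal start. The start used for Mylk lies far inside the annotated gene and that for Tpm1 a short way inside it. These are internal starts, and the outermost starts of Mylk and Tpm1 were not searched. The starts used for Tpm2 and Cnn1 lie slightly inside the annotated gene, and those for Cnn2 and S100a6 at its outer edge. A match is only a run of letters and no measure of binding, and no match says nothing about a factor.
Cnn2: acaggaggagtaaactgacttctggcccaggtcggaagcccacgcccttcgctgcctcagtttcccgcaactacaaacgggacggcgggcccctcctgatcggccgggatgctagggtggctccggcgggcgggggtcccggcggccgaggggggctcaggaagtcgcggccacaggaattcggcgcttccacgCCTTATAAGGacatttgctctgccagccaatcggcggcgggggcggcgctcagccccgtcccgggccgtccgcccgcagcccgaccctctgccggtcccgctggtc
Tpm1: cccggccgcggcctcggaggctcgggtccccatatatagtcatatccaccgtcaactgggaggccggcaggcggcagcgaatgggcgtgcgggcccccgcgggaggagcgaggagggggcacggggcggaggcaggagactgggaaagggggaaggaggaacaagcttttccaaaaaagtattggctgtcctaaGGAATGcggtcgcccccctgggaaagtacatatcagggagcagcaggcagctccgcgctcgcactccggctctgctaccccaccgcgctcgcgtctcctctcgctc
Mylk: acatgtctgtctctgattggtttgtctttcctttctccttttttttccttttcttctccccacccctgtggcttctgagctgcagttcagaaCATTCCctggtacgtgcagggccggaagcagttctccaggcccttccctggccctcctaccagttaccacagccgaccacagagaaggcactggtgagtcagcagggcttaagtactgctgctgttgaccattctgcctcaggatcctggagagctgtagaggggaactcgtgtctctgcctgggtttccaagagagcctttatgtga

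The first question was whether the 6 genes differed between day 4, when newly formed follicles begin to grow, and birth. Both tropomyosins lay above day 0 on every day 4 array that measured them, at about 1.6 times the day 0 level. The calponin Cnn2 was positive on all 3 arrays by a varying amount, Mylk was high on 1 array only, and Cnn1 and S100a6 lay on both sides of 0. None of the 6 passed the test across all probes (limma, Benjamini-Hochberg adjusted p under 0.05), where 39 of 8135 probes did, a background of 0.479%. At an unadjusted p under 0.05 it was 2 of the 6, Tpm1 and Tpm2, against 9.29% of all probes. The median log2 difference of the 6 genes was 0.47, against −0.00 over all probes tested.

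Tpm1 had log2 ratios of 0.64, 0.77 and 0.53 on the day 4 arrays. The 3 values lay close together, and all 12 repeats behind them were positive, between 0.45 and 0.85. The estimated log2 difference was 0.64 ± 0.13 (SE, n = 3; 95% interval 0.32 to 0.97), which is 1.56-fold. The unadjusted p was 0.00301 and the limma adjusted p 0.16, which placed it at rank 153 of 8135 by p. Tpm1 encodes a tropomyosin found in muscle and, as other splice forms, in most other cells, and the probe does not tell the forms apart.

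Tpm2, a tropomyosin prominent in muscle, had log2 ratios of 0.75 and 0.67 on day 4 arrays 1 and 2. On day 4 array 3 its spots lay in an area that the authors marked as failed and had no value. All 8 repeats were positive, between 0.42 and 1.13, and the value of array 1 carried a flag. The log2 difference was 0.71 ± 0.22 (SE, n = 2; 95% interval 0.14 to 1.28), or 1.64-fold, with a limma adjusted p of 0.42.

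Cnn2, a calponin of many cell types besides muscle, had 0.72, 0.18 and 0.61 on the day 4 arrays. Its 12 repeats were all positive, from 0.07 to 0.81. The log2 difference of 0.50 ± 0.34 (SE, n = 3; limma adjusted p = 0.725) had a 95% interval of −0.32 to 1.32. This SE draws on the spread of both ages, and the SD between arrays was 0.29 at day 4 and 0.93 at day 2. With the day 4 arrays alone the SE was 0.14 and the limma adjusted p 0.126. In that fit 3 of the 6 genes had an unadjusted p under 0.05, against 1788 of 8135 probes. Tpm1, Tpm2 and Cnn2, 3 of the 6 genes, were positive on every day 4 array with a value, against 28.4% of all probes; of those with 3 values, as Tpm1 and Cnn2 had, 24.1% were.

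Mylk had 1.19, 0.25 and −0.10 on the day 4 arrays, and array 1 stood far above the other 2. The repeats within an array differed little (SD 0.11 on array 1), so that the spread lay between arrays. Its log2 difference was 0.45 ± 0.34 (SE, n = 3; limma adjusted p = 0.761), and without day 4 array 1 it was 0.07. Cnn1, the calponin of differentiated smooth muscle, had 0.09, −0.43 and 0.37, the last from 3 repeats and flagged. Its log2 difference was 0.01 ± 0.25 (SE, n = 3; 95% interval −0.60 to 0.62), and it ranged between −0.17 and 0.23 over the alternatives.

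S100a6 had −0.26, 0.15 and −0.14 on the day 4 arrays. Its log2 difference was −0.08 ± 0.20 (SE, n = 3; limma adjusted p = 0.935), and the 95% interval of −0.58 to 0.42 still holds moderate differences in either direction. It was the only one of the 6 with a day 4 estimate below 0, and without day 4 array 1 its estimate was 0.01.

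**Figure D1:**
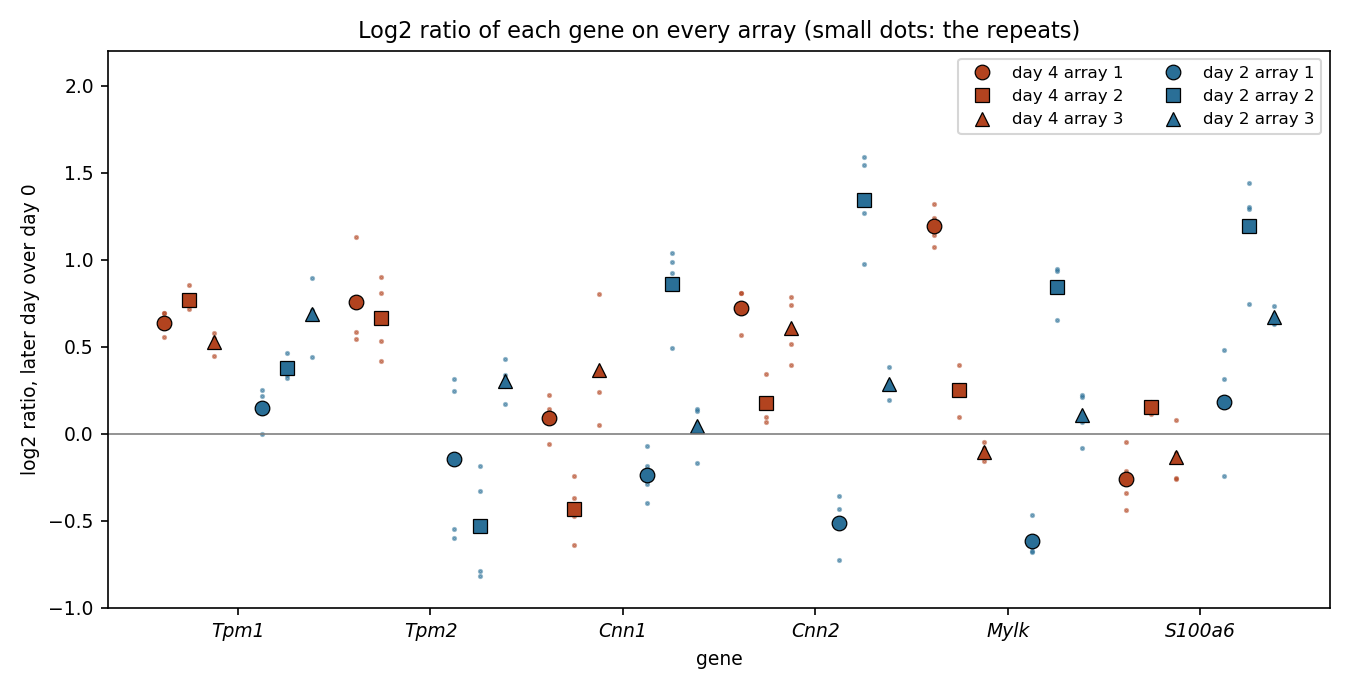
Log2 ratio of the later day over day 0 (y axis) for the 6 genes (x axis), with large symbols for the mean of the repeats on each day 4 (red) and day 2 (blue) array and small dots for the repeats. Tpm1 lies above 0 on all 6 arrays, the 2 day 4 values of Tpm2 lie above its 3 day 2 values, and the 3 day 4 values of S100a6 lie below its 3 day 2 values.

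At day 2, S100a6 and Tpm1 lay above day 0 on all 3 arrays as deposited, while Cnn1, Cnn2 and Mylk were below 0 on array 1 and above it on arrays 2 and 3. Tpm2 was positive on array 3 only. None of the 6 genes passed the limma test, and neither did any other of the 8135 probes (background 0%). At an unadjusted p under 0.05 it was S100a6 and Tpm1, 2 of the 6, against 2.84% of all probes. Being positive on all 3 day 2 arrays, as these 2 genes were, held for 9.13% of all probes. The median of the 6 estimates was 0.30, against 0.01 over all probes.

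S100a6 had log2 ratios of 0.18, 1.19 and 0.67 on the day 2 arrays, the last one flagged. All were positive, and array 2 stood far above array 1. The log2 difference was 0.68 ± 0.20 (SE, n = 3; 95% interval 0.18 to 1.18), or 1.60-fold, with an unadjusted p of 0.0154 and a limma adjusted p of 0.966. With the sign of array 1 turned it was 0.56, and with that of array 2 turned it was −0.11.

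Tpm1 had 0.15, 0.38 and 0.69 on the day 2 arrays, the second one flagged, and its log2 difference was 0.41 ± 0.13 (SE, n = 3; limma adjusted p = 0.966). It stayed positive with the sign of array 1 turned (0.31) or of array 2 turned (0.15). Tpm1 was positive on all 6 arrays of the series, which held for 241 of the 5270 probes with 6 values (4.57%), and in 23 of its 24 repeats.

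Tpm2 had −0.15, −0.53 and 0.30 on the day 2 arrays, and its estimate of −0.12 ± 0.18 (SE, n = 3) became −0.03 with array 1 turned and 0.23 with array 2 turned. Its repeats on array 1 ran from −0.60 to 0.31, the widest repeat spread of the 35 values measured (SD 0.49). The 2 tropomyosins thus shared their sign on the day 4 arrays that measured both and on day 2 array 3, but not on day 2 arrays 1 and 2.

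Cnn2 had −0.51, 1.35 and 0.29 on the day 2 arrays, Mylk had −0.62, 0.84 and 0.11, and Cnn1 had −0.24, 0.86 and 0.04. In all 3 genes array 1 was the lowest, array 2 the highest and array 3 between them. Across all probes, day 2 arrays 1 and 2 also ran in opposite directions (r = −0.675). Their estimates were 0.37 ± 0.34 for Cnn2, 0.11 ± 0.34 for Mylk and 0.22 ± 0.25 for Cnn1 (SE, n = 3 each; limma adjusted p at least 0.966). With the sign of array 1 turned they were 0.71, 0.52 and 0.38, and with the sign of array 2 turned they were −0.52, −0.45 and −0.35.

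**Figure D2:**
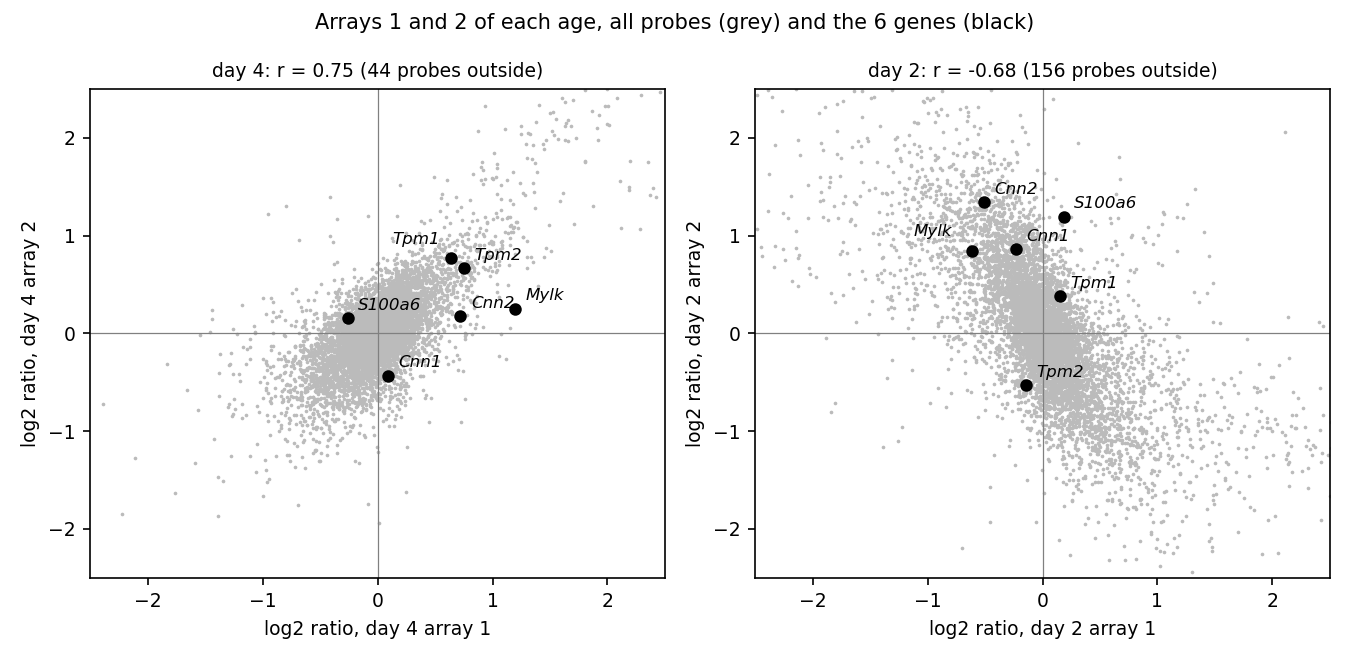
Log2 ratio on array 1 (x axis) against array 2 (y axis) for day 4 (left) and day 2 (right), with every probe in grey and the 6 genes in black; axes stop at 2.5 in either direction. The cloud runs upward at day 4 (r = 0.752) and downward at day 2 (r = −0.675), where Cnn1, Cnn2 and Mylk lie in the upper left with it and S100a6 and Tpm1 lie in the upper right.

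Day 4 was compared with day 2 through day 0, an indirect comparison in which a constant dye effect cancels if every array was labelled as stated. Tpm2 had the largest positive and S100a6 the largest negative difference among the 6 genes. None of the 6 passed the limma test, and no probe did (background 0%). At an unadjusted p under 0.05 it was these 2 of the 6, against 2.64% of all probes. The median of the 6 estimates was 0.18, against −0.01 over all probes.

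For Tpm2, 0.75 and 0.67 on the day 4 arrays stood against −0.15, −0.53 and 0.30 on the day 2 arrays, with no overlap. Every day 4 value lay above every day 2 value in 5.32% of probes, which had 2 or 3 day 4 values. The share among probes with 2, as Tpm2 had, was not counted, and fewer values are more easily set apart. The log2 difference was 0.84 ± 0.29 (SE, n = 2 and 3; 95% interval 0.09 to 1.58; unadjusted p = 0.0338, limma adjusted p = 1). Turning day 2 array 1 gave 0.74, turning day 2 array 2 gave 0.48, and leaving out both gave 0.41.

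For S100a6, −0.26, 0.15 and −0.14 on the day 4 arrays stood against 0.18, 1.19 and 0.67 on the day 2 arrays, again with no overlap. Every day 4 value lay below every day 2 value in 3.98% of probes, again those with 2 or 3 day 4 values. The log2 difference of −0.76 ± 0.29 (SE, n = 3 and 3; unadjusted p = 0.0381, limma adjusted p = 1) had a 95% interval of −1.47 to −0.06. Turning day 2 array 1 gave −0.64, turning day 2 array 2 gave 0.033, and leaving out both gave −0.75.

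Array 3 of both ages shared its day 0 RNA, and both arrays are also part of the fit. The difference of their 2 ratios sets 1 day 4 RNA against 1 day 2 RNA through this day 0 RNA, with no test. On this pair S100a6 differed by −0.81, and 2.36% of the 5630 probes measured on both were lower. Tpm1 differed by −0.16 and Mylk by −0.21, while Cnn1 and Cnn2 both differed by 0.32, above 84.8% of the probes. The fit over all arrays gave 0.24 ± 0.19 for Tpm1, 0.34 ± 0.48 for Mylk, −0.21 ± 0.35 for Cnn1 and 0.13 ± 0.48 for Cnn2 (SE, n = 3 and 3). For Tpm1, Mylk and Cnn1 the shared pair and the fit thus had opposite signs, each within its interval in the fit.

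**Figure D3:**
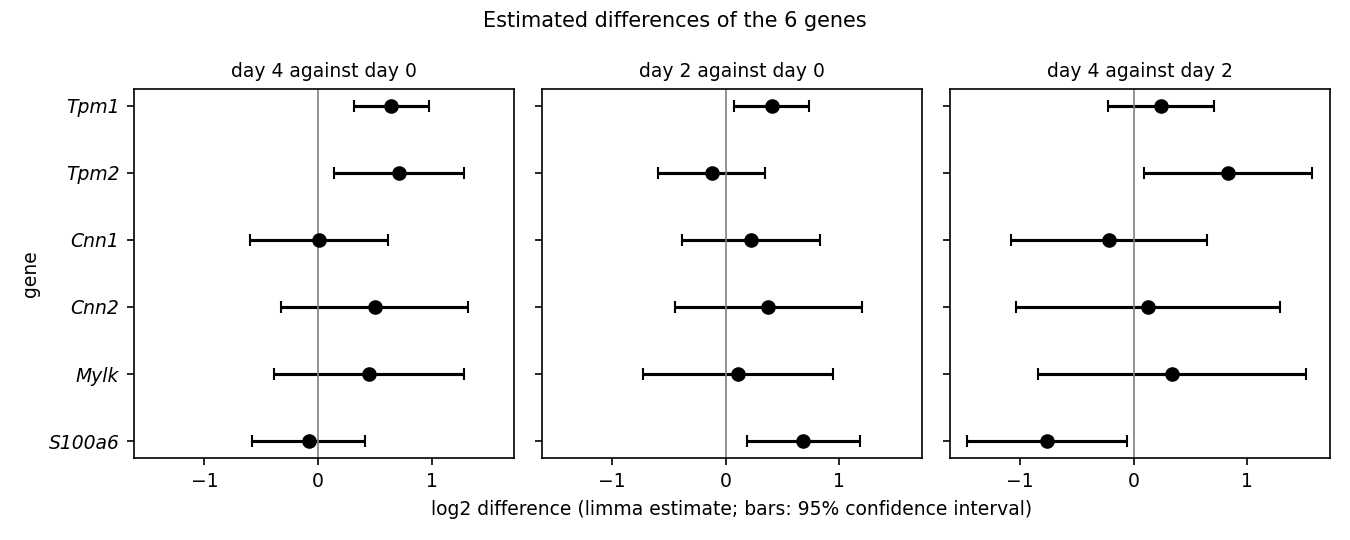
Limma estimates of the log2 difference (x axis; points) with 95% confidence intervals (bars) for the 6 genes (y axis), 1 panel for each comparison. The intervals of Tpm1 and Tpm2 at day 4, of Tpm1 and S100a6 at day 2, and of Tpm2 and S100a6 between day 4 and day 2 leave out 0 before adjustment over all probes.

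The 6 genes lay on different sides of 0 on the same array. On the day 4 arrays 5 of 6, 5 of 6 and 3 of 5 were positive, and on the day 2 arrays 2, 5 and 6 of 6. Of all probes, between 49.6% and 52.0% were positive on an array. Their mean log2 ratio was 0.52, 0.26 and 0.25 on the day 4 arrays, the last without Tpm2, and −0.20, 0.68 and 0.35 on the day 2 arrays. The probes had middling to high signals, at intensity percentiles of their array between 53.6 and 89.1. The SD of the repeats ranged from 0.03 to 0.49, with a median of 0.14. Of the 35 values, 4 carried a flag.

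Among other genes of the actin and myosin apparatus, 32 were tested in 5 lists, and none passed the limma test in any comparison. At an unadjusted p under 0.05, 2 were higher and 1 was lower at day 4, against 9.29% of all probes in either direction, and the median log2 difference of the 32 was 0.03. Of the thin filament genes, 6 of 8 were positive at day 4, with a median of 0.13, against 49.8% of all probes tested. Cald1, which encodes the actin- and myosin-binding protein caldesmon, had 0.48 ± 0.40 (SE, n = 2), and Tagln2, a relative of the smooth muscle protein transgelin, had 0.42 ± 0.23 (SE, n = 3). Cnn3, another calponin, had −0.16 ± 0.19 (SE, n = 3). The brightest of 3 Tpm3 probes, for another tropomyosin, had −0.54 ± 0.48 (SE, n = 2), and the other 2 had −0.30 and 0.40, so that its probes disagreed. Tpm4 had a value on 1 day 4 array only and was not tested.

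Of 9 genes for myosin chains and their control, 2 were positive at day 4, with a median of −0.24, against 49.8% of all probes tested. Calm2, whose product binds calcium and switches on the myosin light chain kinase, had −0.68 ± 0.26 (SE, n = 2; limma adjusted p = 0.535). It was the 1 gene on the low side at an unadjusted p under 0.05, and its other 2 probes had −0.71 and −0.57. The brightest probes of Rhoa and Ppp1r12a had −0.49 and −0.24. Their other probes had 0.38 and 0.08, so that the probes of these genes disagreed in sign. The light chain gene Myl12b had −0.49 ± 0.21 (SE, n = 2), Myl4, a light chain of atrial muscle, had 0.34 ± 0.16 (SE, n = 3), and Myh9, a heavy chain of non-muscle myosin, had 0.32 ± 0.20 (SE, n = 3).

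Of 10 genes for proteins that crosslink actin or tie it to membranes, 7 were positive at day 4, with a median of 0.35. Of all probes tested, 49.8% were positive. Fhl2 and Pdlim1, which encode LIM domain proteins bound to the cytoskeleton, had 1.01 ± 0.27 and 0.74 ± 0.23 (SE, n = 2 each; limma adjusted p = 0.322 and 0.42). Both were measured on the same 2 day 4 arrays as Tpm2. Vcl, for vinculin at cell contacts, had −0.29 ± 0.15 (SE, n = 3). Of 3 S100 proteins and partners tested, 1 was positive (median −0.12), and they included S100a13 with 0.04 ± 0.22 and Cacybp, named for its binding of calcyclin, with −0.46 ± 0.48 (SE, n = 3 each). Of the serum response list, Fos had 0.02 ± 0.13 and Tead1, whose protein binds the MCAT site, had 0.30 ± 0.37 (SE, n = 2 each; limma adjusted p at least 0.85). Between day 4 and day 2, no gene of these lists had an unadjusted p under 0.05. Between day 2 and day 0, 2 of the 32 did, Myl12b (−0.45 ± 0.17) and Calm2 (−0.66 ± 0.22; SE, n = 3 each), against 2.84% of all probes. The brightest probes of both were negative on all 3 day 2 arrays as deposited, while another Calm2 probe had 0.46 on day 2 array 1.

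**Figure D4:**
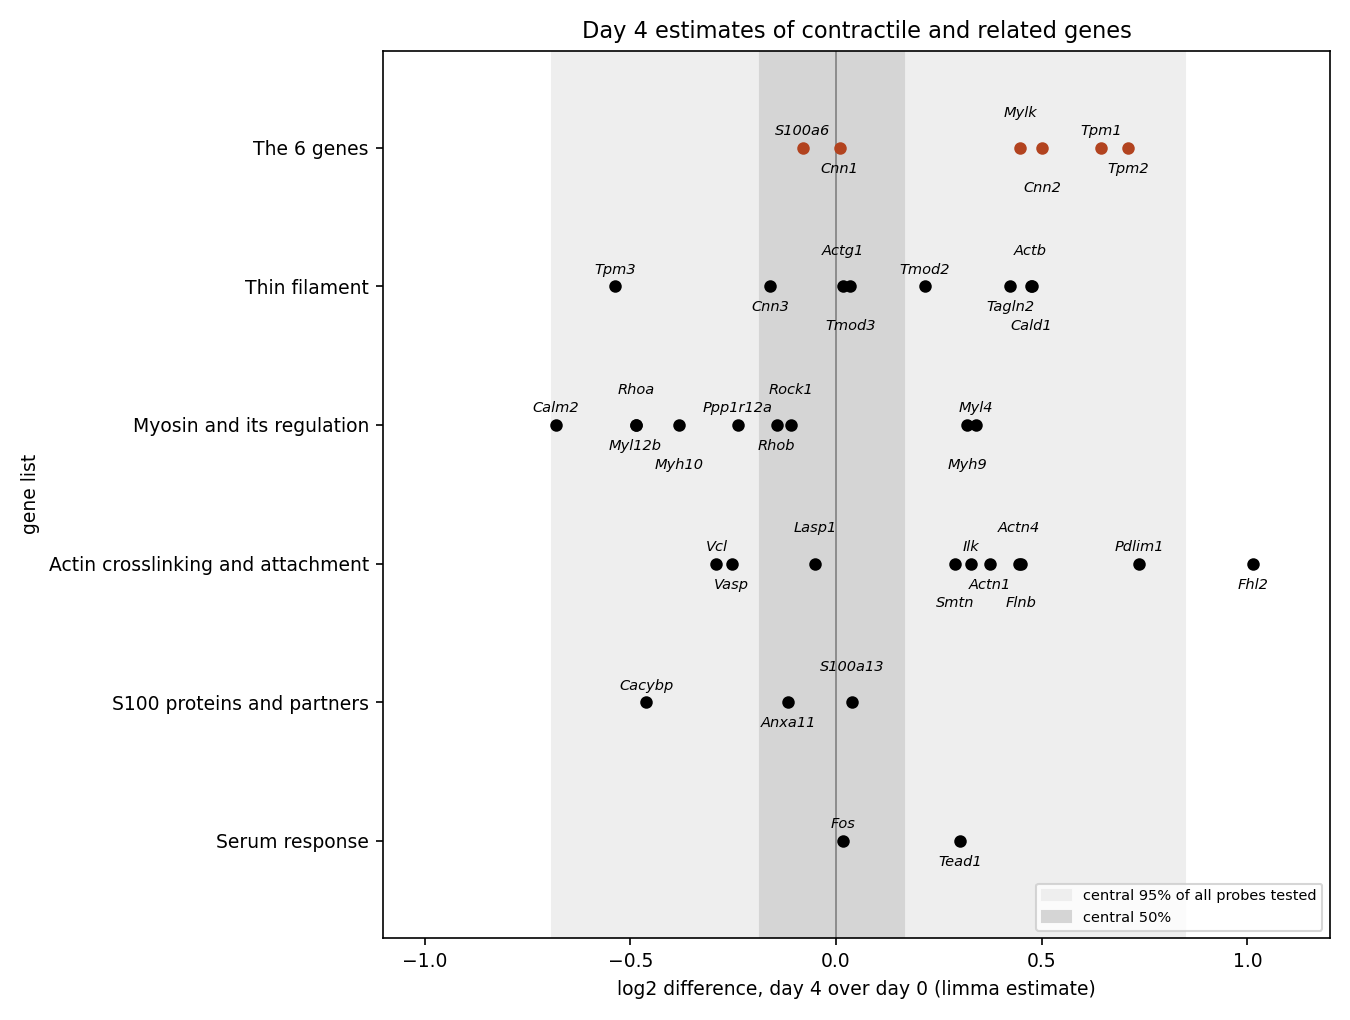
Limma estimates of the log2 difference of day 4 over day 0 (x axis) for the 6 genes (red) and for the genes of 5 related lists (black, the brightest probe of each gene; lists on the y axis). Grey bands give the central 50% (−0.19 to 0.17) and the central 95% (−0.69 to 0.85) of all probes tested; among the genes shown, only Fhl2 lies outside the wider band.

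Markers of other cell types were also compared between day 4 and day 0 in the same RNA. All 6 oocyte markers measured were positive at day 4, against 49.8% of all probes tested. Their median log2 difference was 2.69, and 2 of them passed the limma test, against 0.479% of all probes. All 5 red cell markers were negative (median −0.88), as were the 3 keratins of the ovarian surface (median −0.55). The 4 endothelial markers had a median of −0.45, and 1 of them was positive. None of these markers passed the limma test. The smallest limma adjusted p was 0.151 for the red cell, 0.459 for the keratin and 0.105 for the endothelial markers. The theca and steroid markers Star, Cyp17a1 and Hsd3b1 had 0.52 ± 0.30, 0.12 ± 0.53 and 0.53 ± 0.60 (SE, n = 3, 2 and 3; limma adjusted p at least 0.678). Ovgp1, a marker of the oviduct, had 1.26 ± 0.36 (SE, n = 3; limma adjusted p = 0.311), with 0.46, 1.16 and 2.16 on the day 4 arrays. The part of these cells in the values of the 6 genes was not tested. Markers of granulosa cells, leukocytes and skeletal muscle were not analysed here.

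The probes most like Tpm1 over the 6 arrays were sought among 2828 named probes with 6 values, by the root mean square difference of log2 ratios. The closest were Ctdspl (0.18), Mastl (0.21), glia maturation factor beta (0.22), a proline- and glutamine-rich splicing factor (0.23) and the T-cell leukemia/lymphoma 1B, 5 gene (0.25), against a median of 0.73 over all these probes. For the mean profile of the 6 genes they were integral membrane protein 1 (0.10), coatomer subunit zeta 1 (0.11), the Treacher Collins syndrome homolog (0.12), SET (0.13) and the nuclear import factor of translation initiation factor 4E (0.14), against a median of 0.59. No other gene of the contractile lists was among these 10, but only 5 of the 2828 probes were kept for each profile. Probes without 6 values, such as those of Fhl2, Pdlim1 and Cald1, were not searched. The absence is therefore no measure of how alike the contractile genes were. Smtn, the only other smooth muscle marker measured, had 0.30, 0.16 and 0.41 on the day 4 arrays and −0.51, 0.95 and 0.18 on the day 2 arrays. On the day 2 arrays it had the same order as Cnn1, Cnn2 and Mylk. That order was not particular to contractile genes: the brightest probes of Krt8, Padi6 and Gdf9 had it too, while Cyp17a1 was highest on array 1. The share of all probes with this order was not counted.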

How the data were processed

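RNA of mouse ovaries was measured on 6 spotted 2-colour cDNA arrays, 3 of day 4 and 3 of day 2 after birth, each against day 0. Per the file headers, what the authors deposited are log2 ratios, Cy5 (day 4 or day 2) over Cy3 (day 0), with 4 repeats per probe and array, and log2 intensities. The flags, whose score is 0 or 1 in the files the authors deposited, are not defined there. They were taken here as marks of doubtful values and used only in an alternative. R 1.7.1 is named in the submitters' processing notes. The sources used here do not name the background correction or the normalization. A series-wide table of the authors' mean log2 ratios was tried in place of the repeats.

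Repeats were averaged within each array and not normalized again. Probes with values on at least 2 arrays of each age (8135 of 8272) entered a limma fit (version 3.58.1, R 4.3.3) that gave each age its own mean and moderated the variances (prior degrees of freedom 2.03). Both ages shared the estimate of a probe's spread, so that an SE for day 4 also holds the spread of the day 2 arrays, and the reverse. Tests were 2-sided, Benjamini-Hochberg adjustment covered every probe in the fit, and 0.05 was the threshold. The fit was run on simulated data in which the arrays were independent, so that this run says nothing about arrays that share RNA. Precision is limited by the few arrays: the median SE was 0.19 for day 4, 0.17 for day 2 and 0.26 between them. Deviations of same-numbered arrays from their age's mean correlated at 0.37, 0.05 and 0.51. The ratios of array 3 of both ages, which share a day 0 RNA, correlated at r = 0.767. The main fit had no term for pairs of arrays and took the arrays as independent, which does not hold for this pair.

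The 6 genes, the gene lists and the tests were chosen with earlier results of these data known. Genes named beside the 6 were the closest relatives by family (other tropomyosins, calponins, myosin light chains and S100 proteins, caldesmon, transgelins and vinculin). Also named were the 5 named probes most like a profile and genes at an unadjusted p under 0.05. Some others were picked after their values were seen (Myh9, Fos, Smtn, Cacybp, Tead1, Fhl2, Pdlim1, Calm2, Rhoa, Ppp1r12a and the markers). The brightest probe stood for a gene of the lists, and 1 gene of the lists is not reported here. RefSeq promoter sequences (GRCm38.p6) were matched by symbol for 6 of 6 genes, while the clones themselves were given no genome position. cDNA clones can bind transcripts of related genes, which was not tested.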

Additional observations from a re-analysis of the deposited data

How the results depend on the processing

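None of the 6 genes passed the limma test in any comparison under the alternatives run (20 settings, 19 of them between day 4 and day 2), and leaving out any 1 array gave counts of 0 to 0. Over all probes, the count at day 4 was 39. It was 96 with scale normalization, 126 with an intensity trend and robust prior, 166 with day 4 arrays alone and also without day 2 arrays 1 and 2 (an alternative chosen after seeing the data, in which the lone day 2 array is assumed to vary like the others), 21 with the replicate block, 0 without array 3 of both ages, 0 with day 2 array 2 turned in sign, and 0 to 71 when 1 array was left out. It was 0 without day 4 array 1, 2 or 3, 71 without day 2 array 1 and 16 without day 2 array 3. Between day 4 and day 2 it was 1 with the intensity trend and robust prior.

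Tpm1 at day 4 kept its sign in all 20 settings, at 0.58 to 0.71, with limma adjusted p between 0.0518 and 0.659. Tpm2 at day 4 kept it in 16, at 0.67 to 0.92, and had no value without day 4 array 1 or 2, without flagged values or with probes on all 6 arrays. Cnn1 at day 4, near 0, turned to −0.0036 with median centring, −0.019 with scale normalization, −0.025 with the median of repeats, and −0.17 without flagged values or without array 3 of both ages; leaving out 1 array gave −0.17 to 0.23. S100a6 at day 4 gave −0.20 to 0.0084 with 1 array left out.

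At day 2, leaving out 1 array gave −0.34 to 0.078 for Tpm2, −0.097 to 0.45 for Cnn1, −0.11 to 0.82 for Cnn2 and −0.26 to 0.47 for Mylk; the value of opposite sign came in each without day 2 array 2. With array 2 turned, Tpm2 had 0.23, Cnn1 −0.35, Cnn2 −0.52, Mylk −0.45 and S100a6 −0.11. Tpm2 had 0.30 without day 2 arrays 1 and 2, and Mylk −0.036 with scale normalization.

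Between day 4 and day 2, leaving out 1 array gave −0.44 to 0.11 for Cnn1, −0.31 to 0.61 for Cnn2 and −0.036 to 0.70 for Mylk. With day 2 array 2 turned, Cnn1 had 0.36 and S100a6 0.033. With day 2 array 1 turned, Cnn2 had −0.21 and Mylk −0.075. Tpm1 had −0.043 without day 2 arrays 1 and 2. The cause of these changes of sign was not tested.

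With the replicate number as a block, no gene of the 6 was called (0 in each comparison) and none changed sign. Tpm1 at day 4 then had 0.64 with a limma adjusted p of 0.367, and Tpm2 had 0.92. The day 0 RNA as a random block could not be fitted, since only 1 pair of arrays shares one. A mean over several probes of a gene was not run, since each gene had 1 probe. Background correction could not be varied, as the files hold only ratios. Cnn2 and Mylk at day 4 had log2 differences of 0.50 and 0.45, each with an SE of 0.34 that draws on both ages. With the day 4 arrays alone the SEs were 0.14 and 0.25, and the limma adjusted p values 0.126 and 0.369. How large a difference would have to be to pass with these arrays was not tested.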
